A study of Cyprinus carpio with 18 samples.

Results

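The microRNAs described are ccr-miR-10b, ccr-miR-10c and ccr-miR-10d of the common carp (Cyprinus carpio), given below without the species prefix. They are 3 of the 146 microRNAs known by name and of the 2888 microRNAs in all that were counted. The 3 were chosen by name, as the carp microRNAs numbered miR-10, and the counts hold no other member or arm of that number. Small RNA was sequenced from whole wild-type embryos and larvae from naturally spawned carp of the farmed strain FFRC No.2, with 3 libraries at each of 6 stages and 18 in all. Embryos were sampled 2 h after fertilization at cleavage, 6 h after it as blastocysts, 12 h after it at gastrulation, 20 h after it during organ formation and 64 h after it at hatching, and larvae 1 day after hatching. None were treated. RNA of a stage was pooled in equal amounts before the libraries were made. Separate spawnings for the 3 libraries are not stated in the labels, and so the p-values below speak only of how libraries scatter, which may be technical scatter.

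MicroRNAs are short RNAs that guide repression of the messenger RNAs they pair with. The miR-10 genes of vertebrates lie inside the Hox clusters, the rows of genes that set position along the body axis, close to the Hox4 genes, and they are transcribed in nested domains of the trunk and spinal cord much as their Hox neighbours are. In zebrafish, miR-10 represses hoxb1a and hoxb3a within the spinal cord, and it also acts on blood vessel growth. miR-196, the other microRNA of the Hox clusters measured here, lies further towards the posterior end of the clusters. The members of the family differ from one another by few bases, and how reads shared between them were assigned is not given in the sources used here, so the split between members is less certain than their sum.

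Library depth was very uneven. The first 4 stages had 60779 to 438398 counts per library, whereas hatching and larva libraries had 4964459 to 8427601, so that counting error was far larger early on. No library of the first 4 stages was as deep as any later one. Stage and depth therefore cannot be told apart where hatching is compared with organ formation, or the larva with cleavage. miR-430, the microRNA of maternal RNA clearance in fish, and miR-738 together held 37.7% to 93.9% of the counts in the cleavage, blastocyst and gastrulation libraries and 0.488% to 6.90% at hatching and in the larva. A share of all counts therefore moves with those 2 microRNAs, and levels are given below also as a share of the counts without them. A ratio between 2 members of the same library does not depend on how libraries are scaled. In whole embryos, more cells that express a microRNA and more of it per cell cannot be told apart.

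As a sum, the 3 members were a minor part of the early libraries and a large part of those from organ formation on. As mean ± SD of 3 libraries, cleavage embryos gave 1.31% ± 0.794 of all counts, blastocysts 0.743% ± 0.603 and gastrulae 1.06% ± 0.655. Embryos in organ formation gave 10.6% ± 5.15, hatching embryos 16.9% ± 0.384 and larvae 10.7% ± 1.42. The share differed over the 6 stages (F = 27.8, permutation p = 3e-05, 100000 permutations). F was 154 without organ formation 1 and 42.6 without organ formation 2, the libraries with the lowest and the highest share of that stage, and the test passed with any 1 library left out, at F = 21.4 or more. Every library from organ formation on lay above every earlier one, the lowest of them being organ formation 1 with 4.86% and the highest earlier one cleavage 1 with 2.20%. Without miR-430 and miR-738 the sums were, in stage order from cleavage to larva, 2.81% ± 0.724, 5.08% ± 3.54, 5.36% ± 2.05, 19.9% ± 8.29, 18.04% ± 0.291 and 10.9% ± 1.53 (mean ± SD of 3 libraries). On this scale organ formation and hatching overlapped, so the further gain at hatching in the share of all counts was not seen.

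miR-10b was the leading member. It had 1627, 453 and 337 counts in cleavage 1, 2 and 3, which were 1.20%, 0.480% and 0.331% of all counts. In blastocyst 1, 2 and 3 it had 158, 1666 and 3430 counts (0.0365%, 0.450% and 0.782%), and in gastrulation 1, 2 and 3 it had 286, 1824 and 1226 (0.158%, 0.727% and 0.780%). These 3 stages overlapped, with blastocyst 1 and gastrulation 1 the lowest libraries. In organ formation 1, 2 and 3 it had 2123, 5489 and 9615 counts, or 2.66%, 9.03% and 6.81%. At hatching it had 680910, 518544 and 475310 counts, or 10.2%, 10.3% and 9.57%, and it was the first or second most abundant named microRNA of each hatching library. In the larva it had 311707, 403234 and 390240 counts, or 5.52%, 6.45% and 4.63%, so that no larva library reached a hatching one. Without miR-430 and miR-738 its share was 1.42% ± 0.493, 2.84% ± 2.33, 2.80% ± 1.10, 11.6% ± 5.42, 10.7% ± 0.329 and 5.63% ± 0.964 from cleavage to larva (SD, n = 3 each), where hatching and organ formation overlapped. By mean share of all counts the order was hatching, organ formation, larva, cleavage, gastrulation, blastocyst, and of its neighbours organ formation overlapped with the larva, cleavage with gastrulation and gastrulation with blastocyst.

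miR-10c followed miR-10b closely in level. Cleavage libraries gave it 1342, 511 and 318 counts (0.989%, 0.542% and 0.312%), and blastocyst libraries 231, 1216 and 1739 (0.0534%, 0.329% and 0.397%). Its shares in gastrulation 1, 2 and 3 were 0.121%, 0.490% and 0.603%, the last 2 from 1228 and 947 counts. Organ formation gave 1578, 3223 and 6838 counts, or 1.98%, 5.30% and 4.84%. At hatching the counts were 362553, 270264 and 267278, a share of 5.42%, 5.36% and 5.38%, the tightest stage of all. In the larva they were 184465, 224872 and 234066, a share of 3.27%, 3.60% and 2.78%. As for miR-10b, the 3 early stages overlapped and the larva libraries all lay below the hatching ones. Without miR-430 and miR-738 its share was 1.32% ± 0.264, 1.83% ± 0.900, 2.03% ± 0.682, 7.59% ± 2.73, 5.74% ± 0.0634 and 3.27% ± 0.445 from cleavage to larva (SD, n = 3 each), and the hatching and organ formation libraries overlapped.

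miR-10d, the rarest member, took a different course. It had only 19, 42 and 28 counts at cleavage, which were 0.0140%, 0.0445% and 0.0275% of all counts. At blastocyst it had 18, 262 and 470 counts (0.00416%, 0.0708% and 0.107%), and at gastrulation 52, 415 and 171 (0.0287%, 0.166% and 0.109%). At organ formation it had 174, 280 and 730 counts, or 0.218%, 0.461% and 0.517%. It was highest in the 2 deep stages, with 105235, 75995 and 76235 counts at hatching (1.57%, 1.51% and 1.54%) and 113636, 128314 and 155927 in the larva (2.01%, 2.05% and 1.85%). Unlike for the other 2 members, every larva library lay above every hatching library in its share of all counts. The same held without miR-430 and miR-738, where miR-10d had 0.0751% ± 0.0478, 0.403% ± 0.326, 0.527% ± 0.307, 0.749% ± 0.205, 1.64% ± 0.0415 and 2.01% ± 0.128 from cleavage to larva (SD, n = 3 each). On that scale the organ formation libraries, at 0.512% to 0.871%, overlapped with the gastrulation libraries, at 0.302% to 0.877%. With the scaling used for the tests further below, the hatching and larva libraries of miR-10d overlapped.

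**Figure D1:**
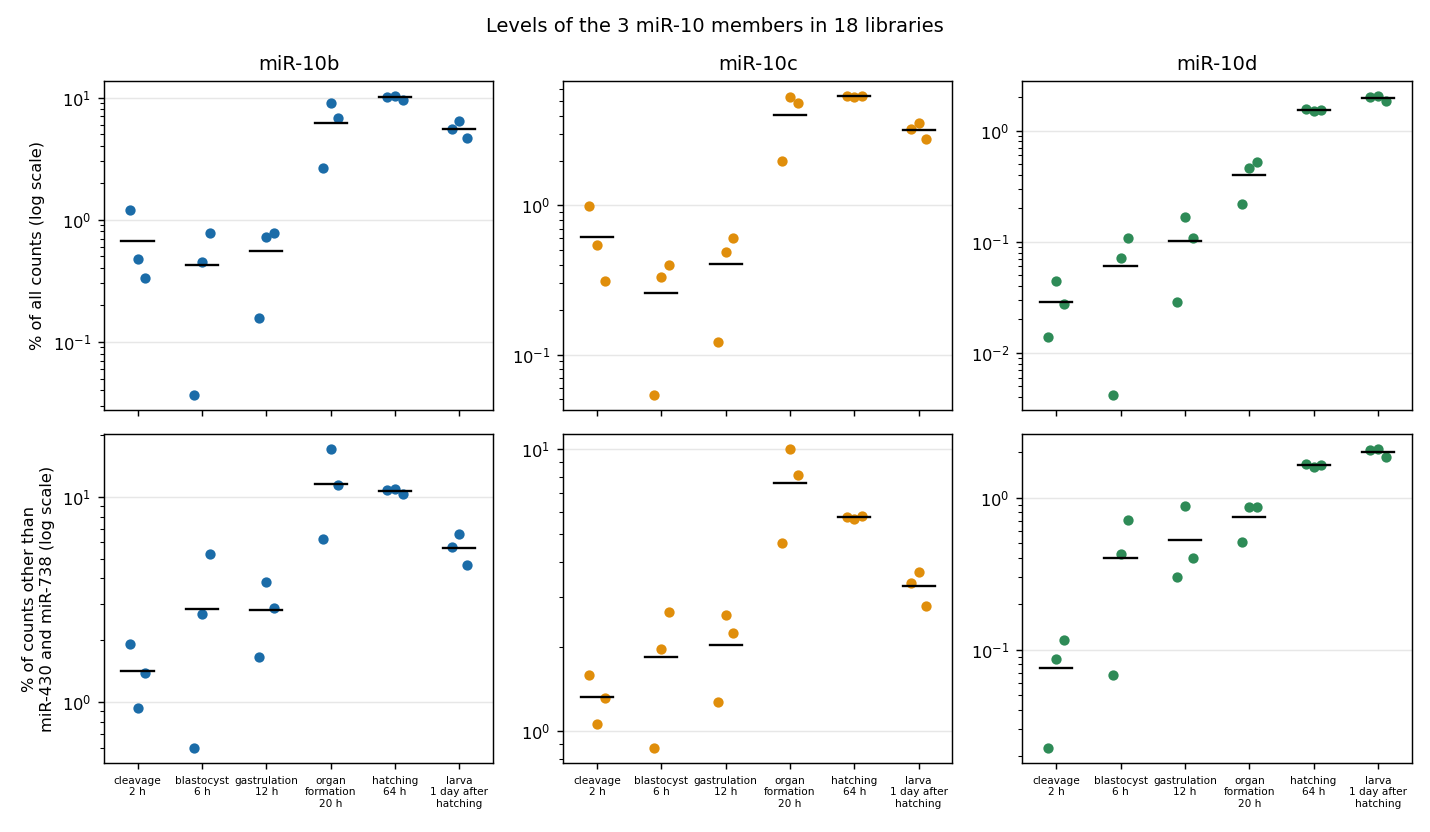
Each panel plots 1 member, with the share of all counts in the upper row and the share of counts other than miR-430 and miR-738 in the lower row, both in percent on log axes, by stage; points are libraries and lines are means (n = 3). miR-10b and miR-10c peak at organ formation or hatching and are lower in the larva, while miR-10d is highest in the larva at 1.85% to 2.05% of all counts.

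Each member differed between the 6 stages in edgeR's quasi-likelihood test over all stages, with adjusted p = 0.00211 for miR-10b, 6.67e-04 for miR-10c and 2.02e-04 for miR-10d (Benjamini-Hochberg over the 328 microRNAs abundant enough to test). Such a difference was common, since 75.3% of the tested microRNAs passed. The members' passing is therefore close to the background and only shows that none of them was flat. The comparisons below use counts scaled with TMM factors, which aim to set the bulk of microRNAs level between libraries. These comparisons give log2 fold changes of the later over the earlier stage with their standard errors (SE). The bulk was not level at every step. Over all tested microRNAs the median was 0.87 at hatching over organ formation and −0.31 at organ formation over gastrulation.

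At blastocyst against cleavage, 1 of the 3 members rose, miR-10d. Of all tested microRNAs, 7.62% changed in either direction and 6.1% were higher, which is 20 of 25 calls. With library totals as the scale 12 of 110 calls were higher. The rise of miR-10d was 2.96 on the log2 scale, with SE 0.73 and adjusted p = 0.0208 in edgeR over 3 libraries per stage. Scaled by TMM, miR-10d had 212, 1879 and 2538 CPM (counts scaled to a common library size) in blastocyst 1, 2 and 3, against 88.2, 203 and 312 CPM in cleavage 1, 2 and 3. On this scale blastocyst 1 lay inside the cleavage range, and the rise rested on the other 2 libraries. The TMM factors ran from 0.196 in blastocyst 1 to 2.19 in cleavage 2. As a share of all counts blastocyst 1, at 0.00416%, lay below every cleavage library, at 0.0140% to 0.0445%. The call also ended without cleavage 1 (2.23, adjusted p = 0.108), cleavage 2 (2.98, adjusted p = 0.0761) or blastocyst 3 (2.41, adjusted p = 0.0867). Left without blastocyst 2 and 3 and gastrulation 2, with blastocyst 1 alone for its stage and assumed to vary like the other stages, miR-10d had a log2 fold change of 0.13 (adjusted p = 1). With library totals as the scale the fold change was 1.09 (adjusted p = 0.312), which did not pass either. miR-10b and miR-10c did not pass, at 1.26 (SE 0.69, adjusted p = 0.312) and 0.77 (SE 0.51, adjusted p = 0.455). With library totals both had values below 0, −0.66 and −1.24, so no direction can be given for them at this step.

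MicroRNAs of tissues that form later were also uneven across these libraries. The 20 listed microRNAs of muscle, brain, sensory organs, eye and liver held 0.185%, 0.940% and 1.45% of the counts in blastocyst 1, 2 and 3, against 2.78%, 1.86% and 0.984% in cleavage 1, 2 and 3. In gastrulation 1, 2 and 3 they held 0.422%, 2.18% and 1.37%. Of the 20, 5 were at 0 in at least 1 blastocyst library (miR-124b, miR-133a-5p, miR-138, miR-182-3p and miR-499) and none in all of them. At cleavage miR-138 was at 0 in every library, and at gastrulation miR-124a, miR-124b and miR-138 were. Scaled by TMM, 20 of all 328 tested microRNAs were higher at blastocyst than at cleavage and 5 were lower. Of the 17 listed ones abundant enough to test, 3 were higher and 0 were lower. The 3 were miR-206, miR-9-5p and miR-9-3p, with log2 fold changes of 3.57, 3.59 and 3.07. Whether the uneven levels of these microRNAs and the level of miR-10d are linked was not tested.

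From blastocyst to gastrulation no member passed, while 7.01% of all tested microRNAs did. At gastrulation over blastocyst the log2 fold changes were −0.21 (SE 0.68) for miR-10b, −0.03 (SE 0.51) for miR-10c and 0.15 (SE 0.67) for miR-10d, each smaller than its error, in edgeR's quasi-likelihood test with adjusted p = 0.973, 1 and 1. None had an unadjusted p under 0.05, and none passed in DESeq2. Scaled by TMM, miR-10b averaged 9304 ± 3236 CPM at gastrulation and 10778 ± 8391 CPM at blastocyst (SD, n = 3 each).

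At organ formation against gastrulation, 1 of the 3 members rose, miR-10c, by 1.87 with SE 0.52 and adjusted p = 0.0478 in edgeR. Of all tested microRNAs 6.1% changed and 1.83% were higher, which is 6 of 20 calls, whereas with library totals as the scale 41 of 47 calls were higher. miR-10c averaged 24910 ± 12675 CPM at organ formation and 6797 ± 2220 CPM at gastrulation (SD, n = 3 each). miR-10b had the larger fold change but also the larger error, at 2.04 (SE 0.70, adjusted p = 0.105), with 14685, 60659 and 39649 CPM at organ formation against 5577, 11410 and 10924 CPM at gastrulation. The lowest organ formation library was above the highest gastrulation library for both, and for miR-10b it was below blastocyst 3, which had 18522 CPM. miR-10d had 0.51 (SE 0.67, adjusted p = 0.746), and its libraries overlapped, with 1204, 3094 and 3010 CPM at organ formation against 1014, 2596 and 1524 CPM at gastrulation.

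The results of miR-10b and miR-10c sat near the threshold and moved with the settings. The call of miR-10c was kept in 14 of 31 alternative settings, with log2 fold changes from 1.52 to 3.55, and miR-10b passed in 10 of 31, with 1.55 to 3.70, so the direction was the same in all of them. With library totals as the scale both passed, at 3.47 for miR-10b (adjusted p = 0.0233) and 3.32 for miR-10c, and in DESeq2 both passed as well, with adjusted p = 0.00359 for miR-10b. With the replicate number as a block miR-10c stood at 1.84 (adjusted p = 0.0756). When 1 library was left out, miR-10c kept its call only without cleavage 1, cleavage 2, blastocyst 1, blastocyst 3 or organ formation 1, and the other 13 omissions ended it, with an adjusted p up to 0.187 without organ formation 2. miR-10b passed without cleavage 1 (2.31, adjusted p = 0.0402) and without blastocyst 1 (2.31, adjusted p = 0.0141).

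The posterior Hox microRNAs rose at the same step. miR-196a and miR-196b, fewer in counts by far, rose by 3.19 (SE 0.49) and 3.26 (SE 0.55). Both were called, as was 1 of the 3 miR-10 members, where 1.83% of all tested microRNAs were called higher. miR-10b missed the threshold, with adjusted p = 0.105 in edgeR. Their summed share of all counts was 0.246% to 0.352% in the organ formation libraries and 0.00496% to 0.0167% in the gastrulation libraries. At gastrulation this was only 5 to 16 counts of miR-196a and 4 to 26 of miR-196b per library. miR-196b had also risen at blastocyst over cleavage, by 3.17 (SE 0.62, adjusted p = 0.00638 in edgeR), from 1 to 2 counts per cleavage library. The blastocyst libraries had 3 to 25 counts of it. In blastocyst 1 its 3 counts of 432581 were a lower share of all counts than in any cleavage library, so that rise depends on the scale. Whether the fold changes of the miR-196 and miR-10 members differ was not tested. The relatives of miR-10 by sequence, miR-99 and miR-100, with their cluster partners miR-125b and miR-125c, had fold changes of −1.55 (SE 0.75), −0.83 (SE 0.50), −0.996 (SE 0.50) and −0.40 (SE 0.44) and none of the 4 passed. The median fold change over all tested microRNAs was −0.31, against 2.04 for miR-10b, 1.87 for miR-10c and 0.51 for miR-10d.

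At hatching against organ formation, 1 of the 3 members rose, miR-10d, where 27.1% of all tested microRNAs changed and 18.3% were higher. It rose by 2.11 with SE 0.69 and adjusted p = 0.0345 in edgeR, having 9941, 12288 and 9338 CPM at hatching against 1204, 3094 and 3010 CPM at organ formation. The median of all tested microRNAs was 0.87 on the same scale. With RLE size factors, which brought that median to 0.06, miR-10d had 1.33 (adjusted p = 0.129), and it passed in 15 of 31 alternatives. Over all 31, whether past the threshold or not, its values ran from 0.93 to 2.71. It did not pass without organ formation 1, 2 or 3, without hatching 1, 2 or 3, or without cleavage 1, at 1.49 to 2.32. Of the 17 tested microRNAs of later tissues 11 also rose at this step. The 20 together held 18.3% to 19.3% of the counts at hatching against 3.79% to 6.298% at organ formation. Whether their rise and that of miR-10d are linked was not tested. miR-10b and miR-10c had 0.84 (SE 0.68, adjusted p = 0.389) and 0.57 (SE 0.51, adjusted p = 0.448), close to that median, and miR-10b turned to −0.32 and miR-10c to −0.60 with the totals of named microRNAs other than miR-430 and miR-738 as the scale. At this step miR-100, miR-125b and miR-125c rose, by 2.06 (SE 0.51), 2.12 (SE 0.52) and 2.57 (SE 0.46), and miR-99 with 1.54 (SE 0.74) did not pass. miR-196a and miR-196b had −0.56 (SE 0.44) and −1.01 (SE 0.50) and did not pass.

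In the larva against hatching no member passed, and 0.305% of all tested microRNAs did, which is 1 of 328. miR-10b had 32885, 37939 and 24138 CPM in the larva against 64324, 83845 and 58220 CPM at hatching, or −1.12 on the log2 scale (SE 0.68, adjusted p = 0.517). For miR-10c it was −1.01 (SE 0.51, adjusted p = 0.362) and for miR-10d 0.09 (SE 0.66, adjusted p = 1). None of the 3 had an unadjusted p under 0.05 or passed in DESeq2. The libraries of the 2 stages did not overlap for miR-10b and miR-10c. For miR-10d they did, with 11988, 12073 and 9645 CPM in the larva against 9941, 12288 and 9338 CPM at hatching. The spread in this fit is shared with the noisier early stages. With the 6 libraries of hatching and larva fitted alone, all 3 members passed in edgeR's quasi-likelihood test, miR-10b at −0.81 (adjusted p = 0.0274), miR-10c at −0.70 (adjusted p = 0.0256) and miR-10d at 0.41 (adjusted p = 0.0415), where 49 of the 612 microRNAs tested in that fit were called. In all 31 alternatives miR-10b and miR-10c had values below 0 and miR-10d a value above 0, down to 0.02.

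From cleavage to larva all 3 members rose, where 61% of all tested microRNAs changed and 31.1% were higher. In the larva against cleavage, the rise was 5.82 (SE 0.82) for miR-10d, 2.81 (SE 0.72) for miR-10b and 2.17 (SE 0.53) for miR-10c, with adjusted p = 1.20e-04, 0.00481 and 0.00381 in edgeR. Each passed in all 31 alternatives, at 4.50 to 7.25 for miR-10d, 1.77 to 4.22 for miR-10b and 1.08 to 3.57 for miR-10c. The rise of miR-10d rests on 19 to 42 counts per cleavage library. The posterior miR-196b also rose, by 4.45 (SE 0.62), and miR-196a had 1.03 (SE 0.45, adjusted p = 0.0599). That rise of miR-196b starts near the floor, from 1 to 2 counts per cleavage library.

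**Figure D2:**
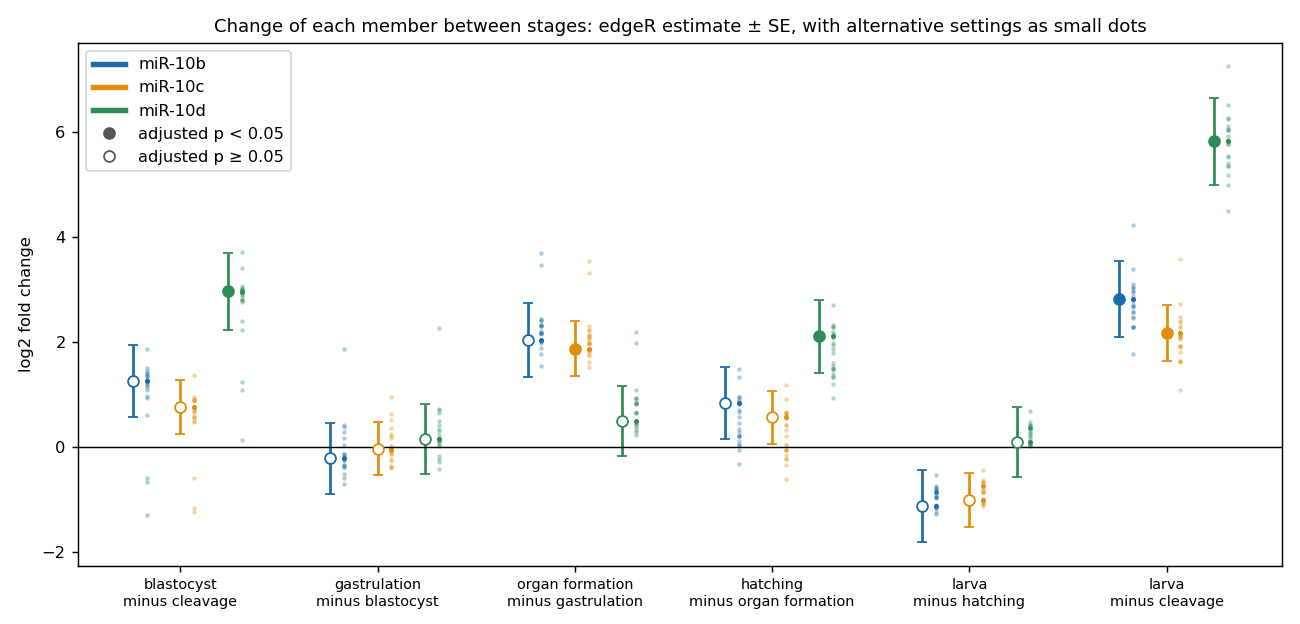
The plot gives log2 fold changes (vertical axis) of the 3 members for 6 comparisons of stages, with edgeR estimates ± SE as large points, filled where the adjusted p was under 0.05, and 31 alternative settings as small dots. miR-10b and miR-10c have their largest step change at organ formation, with 2.04 and 1.87, and miR-10d at blastocyst and hatching, with 2.96 and 2.11.

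The mix of the 3 members within a library changed with stage in the ratios that involve miR-10d. miR-10b exceeded miR-10c in 16 of 18 libraries, the exceptions being cleavage 2 and blastocyst 1, and miR-10c exceeded miR-10d in all 18. These are shares of reads, in which each read is 1 whole microRNA, so no length enters.

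miR-10d made up 0.636%, 4.17% and 4.10% of the family's counts in cleavage 1, 2 and 3. The 95% Wilson interval was 0.407% to 0.991% for cleavage 1 and 3.10% to 5.60% for cleavage 2, so cleavage 1 stood apart by more than counting error. Its share was 4.42%, 8.33% and 8.33% at blastocyst, and 9.34%, 12.0% and 7.30% at gastrulation. At organ formation it was lower again, with 4.49%, 3.11% and 4.25%, below every gastrulation library. At hatching it was 9.16%, 8.79% and 9.31%, and in the larva 18.6%, 17.0% and 20.0%. As stage means, miR-10d held 2.97% ± 2.02, 7.03% ± 2.26, 9.53% ± 2.34, 3.95% ± 0.735, 9.09% ± 0.269 and 18.5% ± 1.51 of the family from cleavage to larva (SD, n = 3 each).

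Over the 6 stages the ratio of miR-10d to miR-10b varied beyond the scatter of libraries (F = 6.41, permutation p = 2.3e-04, adjusted p = 3.45e-04 over the 3 ratios), and so did that of miR-10d to miR-10c (F = 8.84, permutation p = 1e-04, adjusted p = 3e-04). Both passed in every alternative in which they were recomputed, with adjusted p up to 0.0201 and 0.00202. Without cleavage 1 their F ratios were 32.0 and 14.5. On the log2 scale, with 0.5 added to each count, miR-10d over miR-10b averaged, from cleavage to larva, −4.45 ± 1.67, −2.88 ± 0.22, −2.47 ± 0.35, −3.87 ± 0.37, −2.70 ± 0.07 and −1.48 ± 0.17 (SD, n = 3 each).

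Between neighbouring stages this ratio had 3 separate shifts after gastrulation. It was lower at organ formation than at gastrulation by 1.40 log2 units, higher at hatching than at organ formation by 1.17, and higher in the larva than at hatching by 1.22. In each of these steps the libraries of the 2 stages did not overlap, and the exact permutation test, two-sided, gave p = 0.1, the smallest that 3 against 3 libraries allow. The blastocyst libraries also lay above the cleavage ones, by 1.58 (exact permutation p = 0.1), and gastrulation and blastocyst overlapped (exact permutation p = 0.2). The size of 1.58 leaned on cleavage 1, at −6.38, since cleavage 2 and 3 had −3.42 and −3.57. Blastocyst 1, 2 and 3 had −3.10, −2.67 and −2.87. After gastrulation, miR-10d over miR-10c had the same signs, with −1.28 for organ formation over gastrulation, 1.501 for hatching over organ formation and 1.11 for the larva over hatching. At blastocyst over cleavage it stood at 1.81, with overlapping libraries (exact permutation p = 0.3). The 2 ratios share miR-10d, so they are not independent.

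miR-10b and miR-10c stayed closer to each other. miR-10c made up 44.9%, 50.8% and 46.6% of the family at cleavage, 56.8%, 38.7% and 30.8% at blastocyst and 39.3%, 35.4% and 40.4% at gastrulation. At organ formation it had 40.7%, 35.8% and 39.8%, at hatching 31.6%, 31.3% and 32.6%, and in the larva 30.2%, 29.7% and 30.0%. Blastocyst 1 to 3 spanned nearly the whole range of the series. miR-10c over miR-10b did not pass over stages (F = 2.42, permutation p = 0.0917, the same after adjustment over the 3 ratios). In the same permutation test it did pass without blastocyst 1 (F = 8.39, adjusted p = 0.00137) and without blastocyst 3 (F = 5.86, adjusted p = 0.00903). The outcome thus turned on how the blastocyst libraries were treated. Without blastocyst 2 and 3 and gastrulation 2, F was 23.9. Blastocyst 1 then stands alone for its stage and adds no scatter within it, so nothing is concluded from that F. At hatching every library had a smaller ratio of miR-10c to miR-10b than at organ formation, by 0.33 log2 units (exact permutation p = 0.1).

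**Figure D3:**
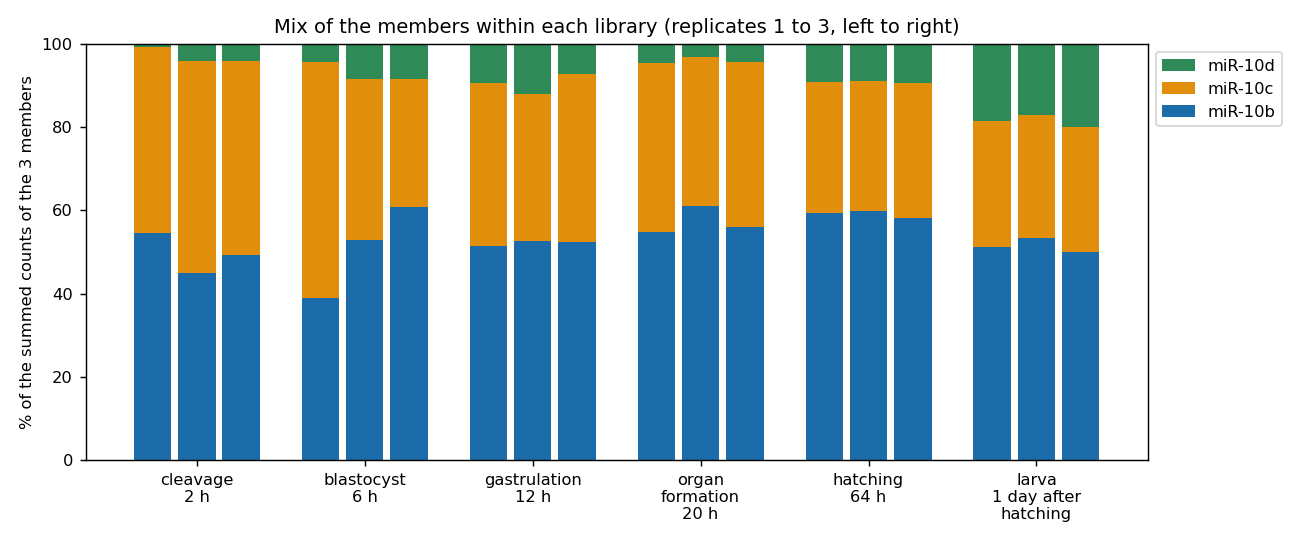
Bars are the 18 libraries by stage, replicates 1 to 3 from left to right, and show in percent how the summed counts of the family split between miR-10b, miR-10c and miR-10d. miR-10d makes up 17.0% to 20.0% of the family in the larva, against 0.636% to 4.17% at cleavage, with a dip to 3.11% to 4.49% at organ formation.

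**Figure D4:**
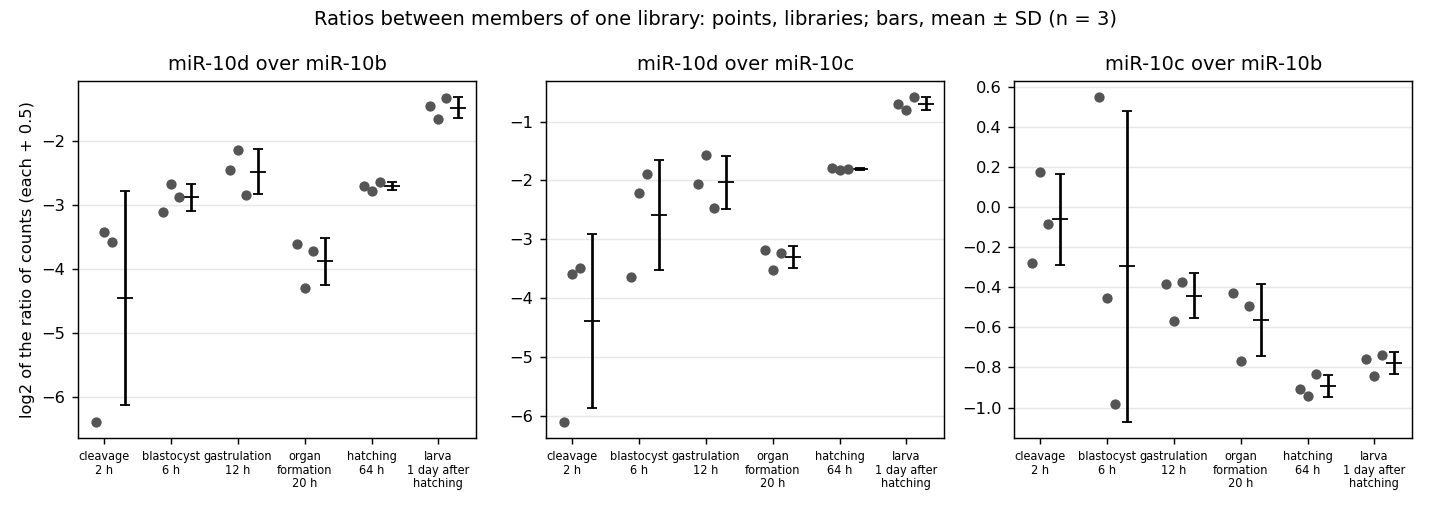
Log2 ratios of counts between members of the same library (vertical axes) are plotted by stage, with libraries as points and mean ± SD (n = 3) as bars. Both ratios of miR-10d dip at organ formation and are highest in the larva, and the ratio of miR-10c to miR-10b has its widest spread at blastocyst.

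Across the 18 libraries miR-10b and miR-10c were the most alike pair, with a Pearson r of 0.991 for log2(TMM-scaled CPM + 1), against 0.865 for miR-10b with miR-10d and 0.837 for miR-10c with miR-10d. These values describe libraries that share depth and stage, and near-identical reads may be shared between members. Among the other named microRNAs abundant enough to test, those most like miR-10b were miR-92b (r = 0.944), miR-222 (r = 0.935) and miR-221 (r = 0.922). The same 3 came first for miR-10c, with miR-221 at 0.932, miR-222 at 0.924 and miR-92b at 0.915. miR-92b belongs to the relatives of the miR-17-92 cluster, and miR-221 and miR-222 form a cluster of their own. For miR-10d the nearest were miR-206 of skeletal muscle (r = 0.966), miR-9-3p of the brain (r = 0.965) and miR-92b (r = 0.950). miR-206 and miR-9-3p belong to the list of later tissues described above.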

How the data were processed

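Per the labels' protocols, TRIzol was used for total RNA, and adapter-ligated cDNA was read on an Illumina HiSeq in single 50 bp reads. The files deposited by the authors hold unnormalized whole-number counts of each microRNA by library. They also deposited TPM values, which in each library are proportional to the counts within 0.0177% and served here only for library totals. The sources used here give no aligner, genome build or rule for reads shared by family members. Named microRNAs are listed with their zeros, and the 2742 predicted ones are listed only at 5 counts or more, with 0 assumed elsewhere. No sequence or position of a miR-10 member was used here, so predicted microRNAs with their seed were not searched for.

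Counts were analysed with edgeR 4.0.16 in R 4.3.3 (TMM, filterByExpr by stage, count minimum 10, 1 mean per stage over 18 libraries, robust glmQLFit and glmQLFTest, Benjamini-Hochberg over 328 microRNAs per comparison, threshold 0.05). Each SE is the size of the log2 fold change divided by √F. Ratios of members (0.5 added to each count) and the family share were compared with 100000 permutations of the F ratio (Python 3.11.15, numpy 2.4.6). DESeq2 1.42.0 was an alternative. The tests were also run on simulated data, only as a check of the code. For edgeR the simulated spread was smaller than that of these libraries, so error rates here were not measured. No 2 replicates of a stage agreed within sampling noise (chi-square per degree of freedom at least 35.2). Without molecular identifiers reads are not independent molecules, and the Wilson intervals (95%) cover counting error alone. MicroRNAs other than the members were named by list or as the 3 most correlated with a member. Members, lists and tests were chosen with earlier results of these data known.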

Additional observations from a re-analysis of the deposited data

How the results depend on the processing

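Over the 31 alternatives to the main edgeR fit, DESeq2 among them, no value past the threshold changed sign. For organ formation against gastrulation 1 of 3 members was called, against 2 with RLE size factors, library totals, totals of named microRNAs without miR-430 and miR-738, DESeq2, the 2 stages alone, and, added after seeing the data, unlisted predicted microRNAs as 4, totals behind the TPM values and named microRNAs alone, and 0 with singleton pairing, no filter, the replicate block and without blastocyst 2 and 3 and gastrulation 2. For blastocyst against cleavage 1 was called, and 0 with library totals, totals behind the TPM values, the 2 stages alone and without those 3 libraries. For hatching against organ formation 1 was called, and 0 with RLE size factors, singleton pairing, either kind of totals, totals behind the TPM values, no filter, at least 10 CPM in 3 libraries, named microRNAs alone and DESeq2. For the larva against hatching 0 were called, and 3 with the 2 stages alone. The cause of these changes was not tested. Leaving out 1 library gave 0 to 2 members at organ formation, 0 to 1 at blastocyst and 0 to 1 at hatching. Library totals moved the median fold change of all microRNAs from 0 to −1.97 at blastocyst and from −0.31 to 0.42 at organ formation, so changes at those steps are relative to the scale. All microRNAs called at organ formation numbered 20, and 4 without a filter, 47 with library totals, 61 with DESeq2 and 9 to 34 with 1 library left out (9 without organ formation 1, 34 without blastocyst 1). At blastocyst they numbered 25, and 110 with library totals and 10 to 37 with 1 library left out (10 without cleavage 1, 37 without blastocyst 1). At gastrulation they numbered 23, and 14 to 24 with 1 library left out. The ratio of miR-10c to miR-10b (F = 2.42) had F from 1.68 to 8.39 when 1 library was left out. Without blastocyst 2 and 3 and gastrulation 2 its F was 23.9, with blastocyst 1 alone for its stage and so without scatter there. The share of miR-10c in the family passed the permutation test (F = 3.75, adjusted p = 0.0474). That share also falls when miR-10d gains, so its pass is not a pass of the ratio. As a share of the family miR-10d passed (F = 31.8) and miR-10b did not (F = 1.63, permutation p = 0.22), and miR-10d over miR-10c has no value of its own there. Replicate numbers were read here as names of libraries only. Of 45 same-numbered pairs, 7 had deviations correlated above 0.1, and 8 of 18 libraries were closest to their own number. These values cannot settle whether same-numbered libraries were paired. With the replicate block the call of miR-10c at organ formation ended (1.84) and no other call of a member did. Depth limits miR-10d most, at 18 to 52 counts in 5 of the early libraries.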
